A study of Mus musculus with 7 samples.

Results

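The genes described here are 10 genes that mark T cells and natural killer (NK) cells: *Cd3d*, *Cd3e*, *Cd3g*, *Cd4*, *Cd8a*, *Cd8b1*, *Lck*, *Gzma*, *Nkg7* and *Klrb1c*. They were taken by name from the probe annotation of the array, which gave 14 probes for the 10 genes out of 55681 probes and 35753 names. Livers came from 7 untreated mice aged 4 weeks, and the RNA of each whole liver was measured on its own single-colour array. *Rbpj* encodes the DNA-binding protein that turns an activated Notch receptor into transcription. All animals were *Rbpj* flox/flox on a C57BL/6J background and were kept pathogen-free. There were 4 *AlfpCre*-negative mice, called *Rbpj*+/+, and 3 *AlfpCre*-positive mice, called *Rbpj*-/-. Values of single animals follow 1 order throughout: in *Rbpj*+/+ first Rbpj+/+_1155, next Rbpj+/+_1156, then Rbpj+/+_1024 and last Rbpj+/+_991, and in *Rbpj*-/- first Rbpj-/-_N3, next Rbpj-/-_N5 and last Rbpj-/-_2866. The labels give no sex. The *Alfp* promoter drives Cre in the epithelial lineage of the liver, and not in lymphocytes. The labels describe the *Rbpj*-/- livers as cholestatic.

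A T cell recognises peptide through the T cell receptor, whose variable chains carry no signalling tail of their own and depend on the CD3 chains. The coreceptors CD4 and CD8 bind the presenting molecule and bring the kinase LCK to the CD3 chains, which are then read by the kinase ZAP70. NK cells carry no such receptor, kill through granules of perforin and granzymes, and are numerous in the liver, where NK and NKT cells make up much of the resident lymphocyte pool. In bulk tissue, fewer cells of a type and less RNA per cell cannot be told apart.

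In *Rbpj*-/- liver, *Cd4* fell by 1.54 on the log2 scale and *Cd3e* fell by 0.92 after each array was scaled to its 75th percentile, with no overlap between the genotypes. No member was called higher after scaling. *Gzma*, a granule protease of NK and cytotoxic T cells, differed by 0.87 towards *Rbpj*-/- and did not pass the test. *Cd8a*, *Cd8b1* and *Klrb1c* had no probe that was detected throughout either genotype and were not tested. These calls rest in part on the scaling between arrays, since the intensities of *Cd3e* and *Cd4* as deposited overlapped between the genotypes. Without scaling *Cd4* was still called lower, *Cd3e* was not called, and *Gzma* and *Cd3d* were called higher. Of all genes tested, 41.1% were called higher without scaling and 2.37% lower. Around these genes, *Zap70* fell by 3.84, while 8 of 10 pan-leukocyte genes and 9 of 12 macrophage genes rose and 5 of 7 tested B cell genes fell. After scaling, 14.6% of all tested genes were called higher and 19.6% lower.

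Each probe is a stretch of 60 bases, and the last 30 bases of the 5 probes on which the results turn are given in the sense of the transcript, 5′ to 3′. Capitals mark AATAAA, the hexamer that directs cleavage and polyadenylation when it lies near the end of a transcript.
Cd3e: taatgcaaaaggcAATAAAgtgtattggct
Cd4: acagaaaAATAAAggctataAATAAAatgc
Lck: tgcctagcacacaccaggagctcAATAAAa
Gzma: gtctgatcacaAATAAAatcaacttgaatg
Nkg7: ccaccttgccttatccttcattggtttctt
The array's design places these probes, in build mm9, on the minus strand of chromosome 9 at chr9:44806828-44806887 for *Cd3e*, of chromosome 6 at chr6:124814711-124814770 for *Cd4*, of chromosome 4 at chr4:129225614-129225673 for *Lck* and of chromosome 13 at chr13:113884035-113884094 for *Gzma*. The *Nkg7* probe lies on the plus strand at chr7:50693530-50693589. The hexamer AATAAA occurred in 4 of the 14 member probes, in 10.1% of all 55681 probes and in 12.9% of the tested probes. All 4 of these member probes were well above background on all 7 arrays. So were the *Cd3d* probe and the *Nkg7* probe printed above, which lack the hexamer, and 21249 of all 55681 probes. A link between the hexamer and detection was not tested. The reverse complement of the hexamer, TTTATT, searched as the other strand, occurred in 1 of the 14 member probes, for *Klrb1c*, and in 3.74% of all probes.

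*Cd4*, *Cd8a*, *Nkg7* and *Klrb1c* each have a pair of probes. The starts of the *Cd4* probes are 2995 bases apart, and the second probe ends as follows.
Cd4, second probe: gcagtgtctactgagtgaaggtgataaggt
It lies upstream of the first, at chr6:124817706-124817765 of the minus strand, and holds no AATAAA. The *Nkg7* probes start 382 bases apart, those of *Cd8a* 5026 and those of *Klrb1c* 5159 bases apart. The array's design gives no position for the *Cd3d* probe. Intensities of different probes are not read as relative amounts of their transcripts, because each probe binds its target with its own strength. They were ranked only to choose the probe that stands for a gene. They were also added in the sums of gene lists, which the brightest probes dominate.

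The arrays differed in ways that touch these genes. The 75th percentile of all intensities, by which each array was scaled, was 57.5 to 103 in *Rbpj*+/+ and 118 to 143 in *Rbpj*-/-, and so was higher on every *Rbpj*-/- array. On the log2 scale the groups' means of this percentile differed by 0.73. Dim probes were brighter on the arrays of animals Rbpj+/+_1156 and Rbpj-/-_N3, 1 of each genotype. The median intensity of all probes was 18.7 and 29.6 on these arrays and 4.99 to 7.75 on the other 5. The share of probes well above background was 61.8% and 64.9% on them and 41.1% to 47.7% on the others. All arrays lie on 1 slide and come from 1 scan, with *Rbpj*+/+ in the first row and *Rbpj*-/- in the second, so slide row and genotype cannot be told apart. *Rbpj* itself was lower by 1.13 ± 0.24 (SE) on the log2 scale at 1 of its probes (limma, adjusted p = 0.0115) and by 1.63 ± 0.58 at the other (adjusted p = 0.0723). The first of these did not overlap between the genotypes.

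A probe was tested if the scanner software had marked it as detected above background throughout 1 or both genotypes, and 7 of the 10 members had such a probe. Limma called 0 of these 7 higher and 2 lower at an adjusted p under 0.1, and the other 5 were not called. At an unadjusted p under 0.05, 0 were higher and 2 lower. Over all 18781 genes tested, 14.6% were called higher and 19.6% lower. The genotypes did not overlap for 2 of the 7 members and for 36.5% of all tested genes. The median difference of the 7 members was -0.42 on the log2 scale, against -0.13 over all tested genes. The plot of the probes by animal shows every value.

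**Figure D1:**
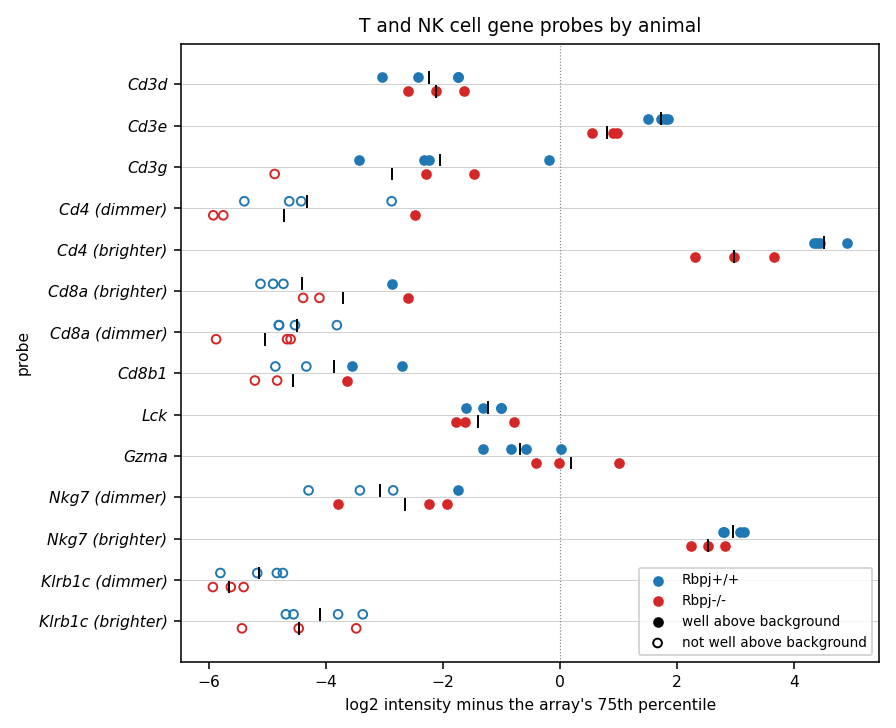
Each point is 1 animal (x axis: log2 intensity minus the 75th percentile of its array), in a row for each of the 14 probes, with the mean of each genotype as a black bar. Filled points are well above background. The genotypes are separate for *Cd3e* and for the brighter *Cd4* probe, and the 2 *Klrb1c* probes have no filled point.

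Of the CD3 chains *Cd3e* was called, and *Cd3d* and *Cd3g* were not. No test compared the chains with each other. *Cd3e* encodes the epsilon chain, which pairs with the gamma and the delta chain and is part of every T cell receptor complex. Its normalised log2 intensity, that is, relative to the 75th percentile of the array, was 1.73, 1.51, 1.86 and 1.80 in *Rbpj*+/+ and 0.90, 0.54 and 0.97 in *Rbpj*-/-. All *Rbpj*-/- animals were below all *Rbpj*+/+ animals. The level was 1.72 ± 0.15 (SD, n = 4) against 0.80 ± 0.23 (SD, n = 3), and the difference was -0.92 ± 0.19 (SE; limma, adjusted p = 0.0123). The exact two-sided permutation test gave p = 0.0286, which is the smallest that the 35 splits of 7 animals allow.

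As deposited, the intensity of *Cd3e* was 340, 244, 208 and 260 in *Rbpj*+/+ and 266, 189 and 232 in *Rbpj*-/-. These values overlapped. Without any scaling the difference was -0.19 ± 0.28 (SE; limma, adjusted p = 0.623), an alternative chosen after the data were seen. In that fit 41.1% of all tested genes were called higher and 2.37% lower. *Cd3e* was therefore lower relative to the other genes of its array, while its own intensity did not pass the test.

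*Cd3d* encodes the delta chain. Its normalised log2 intensity was -3.03, -1.74, -2.42 and -1.74 in *Rbpj*+/+ and -2.12, -2.59 and -1.64 in *Rbpj*-/-. The groups overlapped, and the difference was 0.12 (95% interval -0.70 to 0.94; limma, adjusted p = 0.833). *Cd3g*, the gamma chain, had values of -3.44, -0.19, -2.33 and -2.23 in *Rbpj*+/+ and of -1.46, -4.87 and -2.29 in *Rbpj*-/-. It was highest on the arrays of Rbpj+/+_1156 and Rbpj-/-_N3 and was not well above background on that of Rbpj-/-_N5. Its difference of -0.83 has an interval of -2.86 to 1.198 (adjusted p = 0.525).

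*Cd4*, the coreceptor of helper and regulatory T cells, had the largest difference among the called members. At its brighter probe the normalised log2 intensity was 4.39, 4.34, 4.91 and 4.44 in *Rbpj*+/+ and 2.32, 3.65 and 2.97 in *Rbpj*-/-. The groups did not overlap, and the *Rbpj*-/- animals were spread more widely, with Rbpj-/-_N3 lowest. The difference between 4.52 ± 0.27 (SD, n = 4) and 2.98 ± 0.67 (SD, n = 3) was -1.54 ± 0.31 (SE; limma, adjusted p = 0.0109), or 2.91-fold.

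The intensity of this probe as deposited was between 1624 and 2151 in *Rbpj*+/+ and was 710, 1634 and 928 in *Rbpj*-/-. Rbpj-/-_N5 thus reached the *Rbpj*+/+ range before scaling. Without scaling the difference was -0.81 ± 0.32 (SE) and still passed the test (limma, adjusted p = 0.0744). The other *Cd4* probe was printed on 10 spots, of which 10 were well above background on the array of Rbpj-/-_N3, 5 on that of Rbpj+/+_1156 and 0 on the others. Its intensity was 11.7 for Rbpj+/+_1156, 25.5 for Rbpj-/-_N3 and 2.14 to 3.03 for the other animals. It was not tested, and so the fall of *Cd4* rests on 1 probe.

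The CD8 coreceptor of cytotoxic T cells is a dimer of the chains encoded by *Cd8a* and *Cd8b1*. At the brighter *Cd8a* probe the intensity was 11.7 for Rbpj+/+_1156 and 23.5 for Rbpj-/-_N3, the arrays on which the probe was well above background, and 2.16 to 7.51 for the other 5. The second *Cd8a* probe, printed on 10 spots, was above background on no array, with intensities of 2.21 to 6.09. *Cd8b1* was above background for Rbpj+/+_1155, Rbpj+/+_1156 and Rbpj-/-_N5, with intensities of 8.74, 13.2 and 10.4, and lay between 1.97 and 4.14 for the other animals. A difference between the genotypes was not measurable for either chain.

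Of the 6 member probes that were not tested, the dimmer *Cd8a* probe and both *Klrb1c* probes were above background on no array. The dimmer *Cd4* probe and both *Cd8a* probes had their highest values on the arrays of Rbpj+/+_1156 and Rbpj-/-_N3. The array names 15 probes from the loci of the T cell receptor chains themselves, and 0 were tested. Of these, 7 were above background on no array, and each of the other 8 was above background only on the array of Rbpj+/+_1156, of Rbpj-/-_N3 or of both. The part of these arrays' brighter dim probes in these detections was not tested. The plot of the dim probes sets each against the median intensity of its array.

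**Figure D2:**
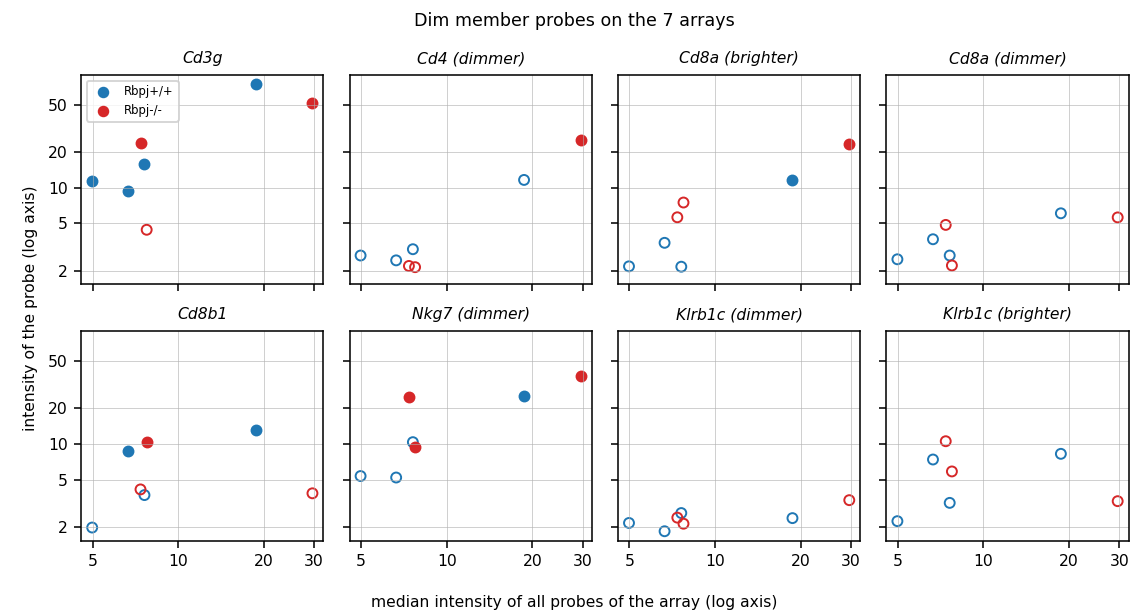
Each panel is a dim member probe and each point an array (x axis: median intensity of all probes of the array, y axis: intensity of the probe, both log axes), filled where the probe is well above background. For *Cd3g*, the dimmer *Cd4* and *Nkg7* probes and *Cd8a*, the arrays of Rbpj+/+_1156 and Rbpj-/-_N3, at medians of 18.7 and 29.6, hold the highest values, while *Cd8b1* and *Klrb1c* do not follow them.

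*Lck*, the kinase that CD4 and CD8 bring to the receptor, was well above background on all 7 arrays. Its normalised log2 intensity was -1.32, -1.01, -1.61 and -1.01 in *Rbpj*+/+ and -1.63, -1.77 and -0.78 in *Rbpj*-/-. Animal Rbpj-/-_2866 was the highest and Rbpj-/-_N5 the lowest of all 7. The difference was -0.16 (95% interval -0.80 to 0.49; limma, adjusted p = 0.716). No test compared *Lck* with the other members.

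Of the NK and cytotoxic members, *Gzma* encodes granzyme A, a protease of the granules of NK cells and cytotoxic T cells. Its normalised log2 intensity was -1.31, -0.58, -0.83 and 0.01 in *Rbpj*+/+ and -0.42, -0.02 and 1.01 in *Rbpj*-/-. Animal Rbpj+/+_991 lay within the *Rbpj*-/- range, and the groups overlapped. The level of -0.68 ± 0.55 (SD, n = 4) against 0.19 ± 0.74 (SD, n = 3) gave a difference of 0.87 ± 0.40 (SE; 95% interval -0.03 to 1.77; limma, adjusted p = 0.141). The exact two-sided permutation p was 0.143. Without animal Rbpj+/+_991, the highest of *Rbpj*+/+, the difference was 1.10 and passed the test (limma, adjusted p = 0.0892). *Gzma* was called in 2 of 18 settings of the processing, this one and no scaling, with differences from 0.46 to 1.60.

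As deposited, the intensity of *Gzma* was 41.2, 57.2, 32.3 and 75.6 in *Rbpj*+/+ and 106.9, 128 and 238 in *Rbpj*-/-. These values did not overlap, and without scaling the difference was 1.60 ± 0.38 (SE; limma, adjusted p = 0.00988). In that fit 2 of the 7 tested members were called higher, *Gzma* and *Cd3d*, and 1 lower, *Cd4*. The same fit called 41.1% of all tested genes higher and 2.37% lower. *Cd3d* then differed by 0.85 (adjusted p = 0.0989). *Gzma* was thus higher in its own intensity, while its position relative to the 75th percentile of its array did not pass the test. The intensities are plotted by animal beside that percentile.

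**Figure D3:**
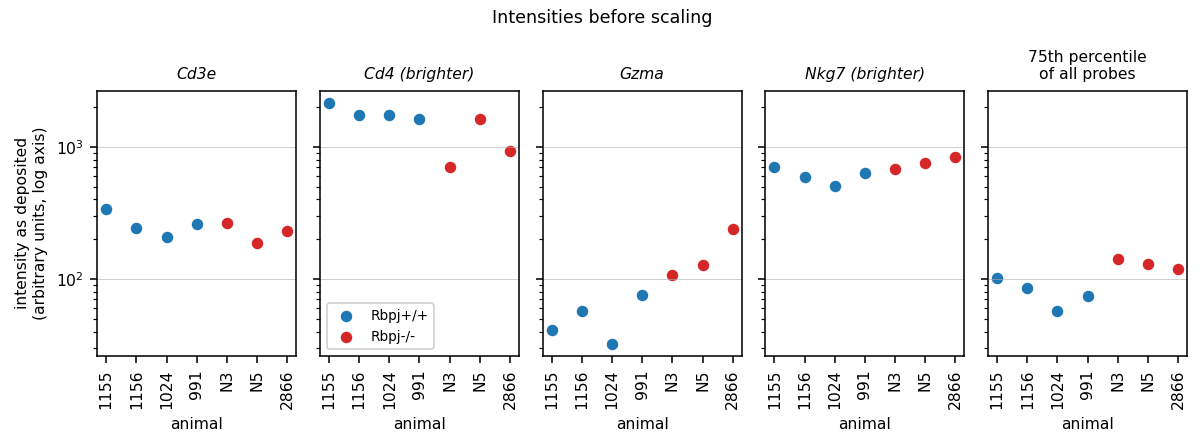
Intensities as deposited (y axis, arbitrary units on a log axis) are shown for each animal (x axis) at the probes of *Cd3e*, *Cd4*, *Gzma* and *Nkg7* that stand for these genes, and for the 75th percentile of each array. *Cd3e* lies between 189 and 340 in both genotypes while the percentile rises from 57.5 to 103 in *Rbpj*+/+ to 118 to 143 in *Rbpj*-/-.

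*Nkg7* encodes a membrane protein of cytotoxic granules. Its brighter probe had normalised log2 intensities of 2.79, 2.80, 3.15 and 3.08 in *Rbpj*+/+ and of 2.24, 2.53 and 2.82 in *Rbpj*-/-. Animal Rbpj-/-_2866 overlapped with *Rbpj*+/+. The difference was -0.42 ± 0.21 (SE; 95% interval -0.90 to 0.05; limma, adjusted p = 0.174), and without scaling it was 0.31 (adjusted p = 0.384). The second probe was above background on 1 of 4 *Rbpj*+/+ arrays, that of Rbpj+/+_1156, and on all 3 *Rbpj*-/- arrays. Its difference of 0.43 (interval -0.97 to 1.83; adjusted p = 0.64) has the opposite sign, and neither probe passed the test.

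*Klrb1c* encodes the NK1.1 antigen, by which NK cells of C57BL/6 mice are usually recognised. Its pair of probes was above background on none of the 7 arrays. The intensities ran from 1.84 to 3.36 at one probe and from 2.24 to 10.6 at the other, and no difference was measurable.

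**Figure D4:**
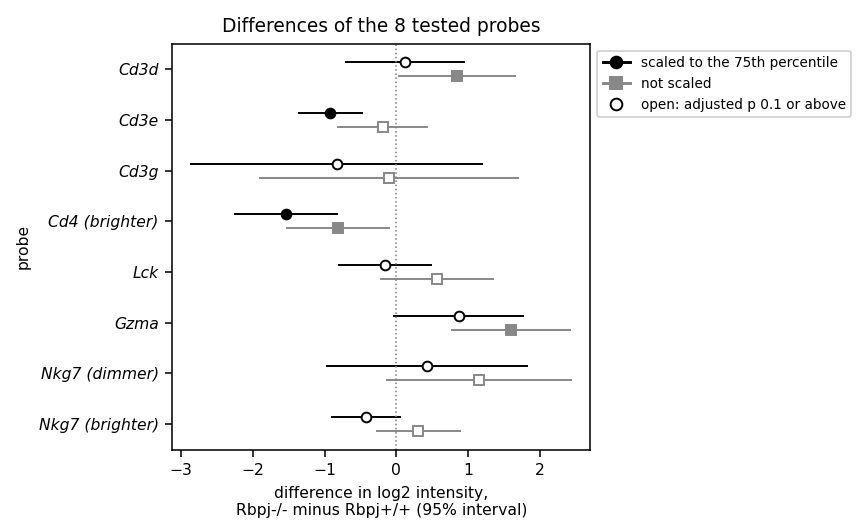
Differences in log2 intensity, *Rbpj*-/- minus *Rbpj*+/+ (x axis), with 95% intervals from limma are given for the 8 tested member probes (y axis), after scaling (circles) and without scaling (squares), filled where the adjusted p is under 0.1. Without scaling all 8 move to the right by 0.73, *Cd3e* is no longer called, and *Gzma* and *Cd3d* are called.

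The genes whose level followed *Cd3e* most closely over the 7 arrays were sought among the genes tested, as a description over animals of both genotypes that share the same scaling. Pearson's r was 0.994 for A_55_P2144090, a probe without a gene symbol, 0.993 for *Mup4*, a major urinary protein made by hepatocytes, and 0.993 for *Creb3l3*, a transcription factor of hepatocytes. It was 0.993 for the transcript ENSMUST00000178292 and 0.992 for *Pnldc1*. For the brighter *Nkg7* probe the closest were *Ptpa* at 0.994, *Urm1* at 0.993, *Sirt7* at 0.992, *Haao* at 0.991 and *Lce1a2* at 0.989. No other member was among these 10.

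T cell receptor signalling genes other than the members were described with a list of 28 genes. Of these, 14 were tested, 5 were called higher and 2 lower, with a median of 0.38 on the log2 scale. Over all tested genes 14.6% were called higher and 19.6% lower, and the counts of every list stand beside these shares. Among the 14 that were not tested are *Cd247*, the zeta chain of the receptor, the adaptor *Lat* and the surface marker *Cd5*. *Zap70* fell at both of its probes. At the brighter one its normalised log2 intensity was 3.03 to 4.07 in *Rbpj*+/+ and -1.32 to 0.43 in *Rbpj*-/-, a difference of -3.84 ± 0.42 (SE; limma, adjusted p = 0.000944), and it passed in all 18 settings in which single genes were refitted. *Cd2*, an adhesion receptor of T and NK cells, fell by 1.14 (adjusted p = 0.0798) with overlapping groups, and was not called in 9 of 18 settings. *Rasgrp1*, which links the receptor to RAS, rose by 1.33 (adjusted p = 0.00259). *Ptpn22*, a phosphatase that dampens receptor signals, rose by 1.21 (adjusted p = 0.00609), but differed by 0.04 and was not called with normexp background correction. *Thy1*, which fibroblasts carry as well as T cells, rose by 1.17 (adjusted p = 0.0251).

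Of 14 genes of T cell identity, 7 were tested, 1 was called higher and 2 lower, and the median was -0.19. *S1pr1*, the receptor by which lymphocytes leave tissue and which endothelium also makes, fell by 1.04 (limma, adjusted p = 0.0249). *Ikzf3*, a transcription factor of lymphocytes, fell by 0.88 (adjusted p = 0.0778) with overlapping groups. The lineage factors *Bcl11b* and *Foxp3* were not tested, and *Tcf7* differed by -0.19 (adjusted p = 0.537).

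Of 46 NK and cytotoxic genes, 43 were on the array and 12 were tested, of which 5 were called higher and 2 lower, with a median of 0.37. The shares over all tested genes were 14.6% higher and 19.6% lower. The receptors *Ncr1*, *Klrd1* and *Klrk1* and the transcription factors *Eomes* and *Tbx21*, which NK cells express, were not tested. *Tyrobp* rose by 1.91 (limma, adjusted p = 0.000545). It encodes the adaptor DAP12, which macrophages also express. *Gzmb* rose by 1.46 (adjusted p = 0.0245). *Gzmc* was above background on no *Rbpj*+/+ array and on all 3 *Rbpj*-/- arrays. It thus entered the test only through the genotype in which it was higher. In the main processing its fold had a lower bound of 1.998 (limma, adjusted p = 0.0298). With normexp background correction *Gzmb* differed by 0.13 and *Gzmc* by -0.02, and neither was called. *Klra1*, an inhibitory receptor of NK cells whose probe may also bind its close relatives, fell by 2.31 (adjusted p = 0.00855). The *Klra1* probe was well above background on all 4 *Rbpj*+/+ arrays and on 2 of 3 *Rbpj*-/- arrays. With normexp correction its difference was -0.98, which was still called (limma, adjusted p = 0.0111). *Gzmk* fell by 1.01 (adjusted p = 0.0796) with overlapping groups. Perforin, *Prf1*, differed by -0.09 (adjusted p = 0.841).

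The signals that draw and keep these lymphocytes did not move one way. Of 16 such genes, 12 were tested, 5 were called higher and 2 lower, with a median of 0.60. CXCL9, CXCL10 and CXCL11 are ligands of the same receptor, CXCR3, and only the RNA of their genes was measured here. *Cxcl10* rose by 1.98 (limma, adjusted p = 0.0110), while *Cxcl9* fell by 2.38 (adjusted p = 0.00633). *Cxcl11* fell by 0.67 (adjusted p = 0.027) at 1 of its 2 tested probes, and the other was not called. Without scaling *Cxcl11* differed by 0.05. The membrane-bound chemokine *Cx3cl1* rose by 1.35 (adjusted p = 0.0567). Of 13 ligands of T and NK cell receptors, 9 were tested, 4 were called higher and 0 lower. *Icosl*, the ligand of the costimulator ICOS, rose by 1.85 (adjusted p = 0.00444). *Cd48*, a ligand of CD2 and of the NK receptor 2B4, rose by 1.37 (adjusted p = 0.00215). *Cd274*, which encodes PD-L1, rose by 0.97 (adjusted p = 0.0228), and was not called with normexp correction, at 0.17. Of 7 lymphoid progenitor genes 3 were tested. *Dntt*, the polymerase of receptor gene rearrangement, fell by 1.76 (adjusted p = 0.0617), and *Flt3* rose by 0.96 (adjusted p = 0.094). *Dntt* was called in 10 of 18 settings and *Flt3* in 7 of 17, and with normexp correction *Flt3* differed by 0.0015.

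Genes of other cell types moved between the same livers. Of the 10 pan-leukocyte genes 8 were called higher and 0 lower, among them *Cd53* (2.33), *Rac2* (1.36) and *Ptprc* (1.32), which encodes CD45, all as differences on the log2 scale. With normexp correction *Cd53* differed by 0.80, *Rac2* by 1.32 and *Ptprc* by 0.40, and each was still called. The summed intensity of the list, relative to the 75th percentile, was 28.8 to 38.4 in *Rbpj*+/+ and 51.0 to 56.7 in *Rbpj*-/-. Of the 12 macrophage genes 9 were called higher and 0 lower, led by *Marco* (2.92), *Lyz2* (2.85) and *C1qb* (1.94), and their sum was 121 to 158 against 415 to 525.

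Of the dendritic cell genes, 5 of 9 tested were called higher, among them *Itgax* at 1.62 and *Clec10a* at 1.41. *Cd209a* is counted among the 5, but was above background on 0 *Rbpj*+/+ and 3 *Rbpj*-/- arrays. It thus entered the test only through the genotype in which it was higher. In the main processing its fold had a lower bound of 1.07. *Cd209a* was called in 7 of 17 settings, and with normexp correction it differed by -0.17. *Siglech*, which marks plasmacytoid cells, fell by 1.15 at 1 of its 2 tested probes, and the other was not called. Of the 7 tested B cell genes 5 were called lower. *Ms4a1*, which encodes CD20, fell by 3.34. Of 8 tested neutrophil genes 2 were called higher, *S100a8* (2.62) and *S100a9* (2.46), and 1 lower, *Elane* (-0.50). Of the 10 hepatocyte genes 5 were called lower, among them *Serpina1a* and *Apoa1* (both -0.83), and the other 5 were not called, with *Cps1* at 0.94 and *Tat* at 0.52. *Serpina1a* and *Apoa1* were not called under quantile normalization (-0.09 and -0.43), with the series matrix (-0.09 and -0.43) or without scaling (-0.11 and -0.10).

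The summed intensity of the 7 tested members was 32.2 to 43.9 in *Rbpj*+/+ and 13.3 to 21.3 in *Rbpj*-/-, a sum in which the *Cd4* probe weighs most. That of the 7 tested B cell genes was 4.15 to 7.05 against 2.26 to 3.39, and that of the hepatocyte genes was 4700 to 6748 against 3452 to 4044. The hepatocyte sum is weighted to its brightest genes, and the mean log2 level of that list overlapped, at 8.15 to 8.85 against 8.08 to 8.33. The part of the other cell types in the differences of the members was not tested. All of these lists were chosen with earlier results of the same data known, and their counts are descriptions.

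**Figure D5:**
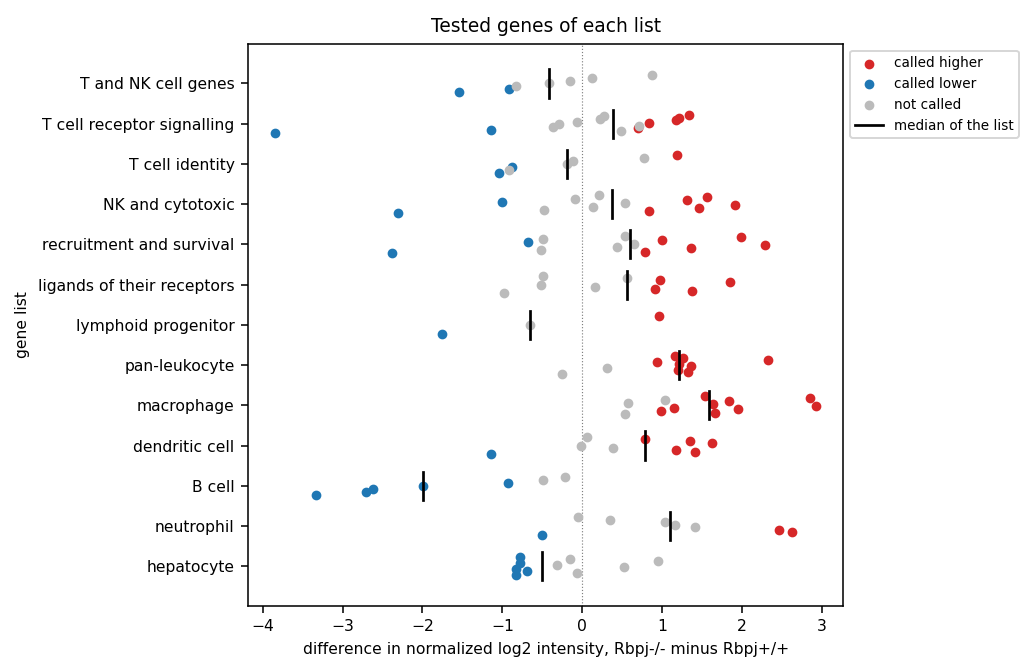
Each point is a tested gene (x axis: difference in normalised log2 intensity, *Rbpj*-/- minus *Rbpj*+/+), in a row for each list (y axis), coloured by its call at an adjusted p under 0.1, with the median of the list as a black bar. The members have a median of -0.42, the macrophage genes of 1.58 and the B cell genes of -1.99, and *Zap70* at -3.84 is the lowest point.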

How the data were processed

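The authors labelled RNA with Cy3, hybridised it to SurePrint G3 mouse arrays and extracted the scans with Agilent Feature Extraction 10.7.3.1. The intensity values they deposited are background-subtracted signals of single spots, not normalized between arrays, and 5 quality marks are given per spot. The deposited series matrix holds the authors' log2 values of the same arrays, centred on each probe, and served as an alternative.

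Control spots and spots with a mark for non-uniformity or for a population outlier were left out (146 probe values); no spot was saturated. Log2 intensities of replicate spots were averaged and shifted by the 75th percentile of their array, as in the authors' methods. A probe entered the test if it carried the marks for a positive, significant signal and for a level well above background throughout 1 or both genotypes (24547 probes). The comparison of the genotypes used limma 3.58.1 (R 4.3.3) in place of the shrinkage t of the methods, with Benjamini-Hochberg adjustment over all tested probes and a threshold of 0.1. The brightest tested probe stands for a gene. For single values the difference in means was also put to an exact permutation test, two-sided. For a probe seen above background in 1 genotype only, the fold is a lower bound within the main processing. It was computed against the lowest signal among probes well above background or the probe's own signal, whichever is higher. Such a probe entered the test only through that genotype. The steps were tested on simulated data. Figures were made with matplotlib 3.10.9.

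The members and all gene lists were chosen with earlier results of these data known. The text names all 10 members and, of each other list, up to 3 called genes with the largest rise and 2 with the largest fall, the 5 genes most like *Cd3e* and *Nkg7*, and some untested or uncalled genes chosen after their values were seen. Some genes that this rule covers are not reported here. The array's design gave names and mm9 coordinates. Alternatives were normexp correction (offset 50), normalization by quantiles, another percentile base, other filters for dim probes, marked spots kept, limma-trend, array weights, the series matrix, a threshold of 0.05, the mean of all tested probes of a gene, each animal left out, Rbpj+/+_1156 and Rbpj-/-_N3 left out together and, added after the data were seen, no scaling. The number of arrays limits the precision.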

Additional observations from a re-analysis of the deposited data

Results flagged for a closer look

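Of the 56 probes with values named in the text or belonging to the members, 1 had an *Rbpj*+/+ animal far from the other 3. *Ms4a1*, the B cell gene for CD20, was highest in animal Rbpj+/+_991, whose gap to the next animal made up 0.843 of the range of the 4 animals. Chance alone marks about 1 in 20 such groups.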

How the results depend on the processing

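*Cd4* kept its direction in all 18 settings, from -1.88 to -0.81, and was called in 17. *Cd3e* kept its direction, from -1.04 to -0.19, and was called in 16. With no filter on dim probes, so that all 55681 probes were adjusted for, neither was called (limma, adjusted p = 0.101 and 0.115), the members called lower numbered 0, the T cell receptor signalling and T cell identity lists together held 2 higher and 1 lower instead of 6 and 4, and the NK and cytotoxic list held 3 and 1 instead of 5 and 2. Without scaling, *Cd3e* was not called, 2 members were called higher and 1 lower, the T cell lists held 10 and 1 and the NK list 7 and 1, while over all probes 10040 were higher and 543 lower instead of 3522 and 4719, and the median of all probes moved from -0.12 to 0.61. With normexp correction the T cell lists held 2 higher and 6 lower and the NK list 3 and 2. Detection on all 7 arrays left 3 and 1 in the NK list. The NK list had 1 called lower under quantile normalization, with the other percentile base, at a threshold of 0.05, with the series matrix and without Rbpj+/+_1156 and Rbpj-/-_N3. At 0.05 the T cell lists had 2 lower.

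With each animal left out in turn, members called higher ranged from 0 to 1 (*Gzma*, without Rbpj+/+_991), those lower stayed at 2, the T cell lists had 4 to 7 higher and 1 to 4 lower, and the NK list had 5 higher and 1 to 2 lower. The T cell lists had 2 lower without Rbpj+/+_1024, Rbpj+/+_991 or Rbpj-/-_N3 and 1 without Rbpj-/-_N5; the NK list had 1 lower without Rbpj+/+_1156, Rbpj+/+_1024, Rbpj+/+_991, Rbpj-/-_N3 or Rbpj-/-_N5. *Cd2*, *Ikzf3* and *Gzmk* were among the calls lost. The sign turned for *Gzmc* (-0.016) and *Cd209a* (-0.17) with normexp, and for *Cxcl11* (0.054) and *Elane* (0.22) without scaling. Among members that were not called, it turned for *Cd3d* in 3 settings (-0.30 with normexp), *Lck* in 3 (0.57 without scaling), *Cd3g* in 1 (0.17 without Rbpj-/-_N5), the dimmer *Nkg7* probe in 1 (-0.20 with normexp) and the brighter in 1 (0.31 without scaling). *S1pr1* (-0.31) and *Siglech* (-0.42) were not called without scaling. The cause of these changes was not tested. No paired analysis was possible because the labels of the genotypes share no replicate numbers. For *Cd8a*, *Cd8b1*, *Klrb1c* and the T cell receptor loci the signal over background limits what can be seen, and dim probes on the arrays of Rbpj+/+_1156 and Rbpj-/-_N3 rest on those arrays.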
